A study of Mus musculus with 6 samples.

Results

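The myosin genes of sorted OBs were examined as a family, nonmuscle isoforms against muscle isoforms. Members were all genes with a symbol of the form Myh, Myl or Myo followed by a number and, for Myl and Myo, optional letters, which took 48 of the 23284 genes listed: 13 heavy chains (Myh), 11 light chains (Myl) and 24 unconventional myosins (Myo). The rule used symbols alone and no measured value, but it was chosen with earlier results of these data known. The RNA came from ECFP+ OBs of *Col2.3*-ECFP mice aged 12 to 16 weeks, collected from ectopic bone that 2.5 μg of BMP-2 per implant had induced, 3 samples on day 10 and 3 on day 14. All 6 samples carried the same transgene, in which a *Col1a1* promoter fragment drives a cyan fluorescent protein in OBs, and the sort left out dead cells and cells positive for CD45. The bone was digested with collagenase 1 time for the earlier group and 2 times for the later one, and extent of digestion and age of the bone cannot be told apart. By title the later samples are all of day 14, while the descriptions of replicates 2 and 3 among them give later days. In the study, the shape and movement of OBs were followed between these days, and the family holds the motors that act on actin in such processes.

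Myosins are motors that pull on actin filaments. Conventional myosin (class II) is built from a pair of heavy chains, each carrying an essential and a regulatory light chain, and it assembles into bipolar filaments. Nonmuscle myosin II tightens stress fibres and the cell cortex, and the smooth and striated muscle isoforms drive contraction. The unconventional classes mostly work without filaments, tether membranes to actin, carry cargo or build protrusions.

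Depth overlapped between the days. Mapped reads, estimated from the steps between low values, were between 4534000 and 7750000 per sample, and the FPKM (read values scaled to transcript length and to library size) of a sample summed to between 431897.7 and 486939.7. At this depth 3 reads on a kilobase of usable transcript were worth 0.387 to 0.662 FPKM, and less on the longer transcripts, so that the reads behind a value depend on the length of the gene. Levels of OB genes stood far above this, *Col1a1* at 14150 to 34160 FPKM and *Ibsp*, a bone matrix sialoprotein, at 1293 to 25250 FPKM. The summed level of 7 OB markers was 54190, 52070 and 28370 FPKM in day 10 replicates 1 to 3 and 19620, 38270 and 15670 FPKM in day 14 replicates 1 to 3. In bulk samples, fewer cells of a type and less RNA per cell cannot be told apart. Some genes that every cell uses were at or near 0 (*Gapdh* at 0.125 to 0.414 FPKM, *Ppia* listed at 0 in 5 of 6 samples), and both have many near-identical copies in the genome. A member at 0 is therefore called listed at 0 and not absent.

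The regulatory light chains are shown first, because they were the most abundant members together with the essential light chain *Myl6*, and because *Myl12a* and *Myl12b* are so alike that reads can be shared. The coding sequences of *Myl12a* and *Myl12b* were 96.5% identical, *Myl9* was 85.7% identical to *Myl12a* and 86.4% identical to *Myl12b*, and each was 516 bases long. The first 75 coding bases follow, in the length of a sequencing read. They encode the amino-terminal end of the chain, which holds the residues that myosin light chain kinase phosphorylates. Capitals mark bases that differ from *Myl12a*. The sequences are from GENCODE vM21 on mm10, and the first base printed lies at position 70996880 of chromosome 17 (minus strand) for *Myl12a*, at 70977231 of chromosome 17 (minus strand) for *Myl12b* and at 156778545 of chromosome 2 (plus strand) for *Myl9*.
Myl12a: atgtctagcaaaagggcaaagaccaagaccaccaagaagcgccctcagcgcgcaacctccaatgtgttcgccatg
Myl12b: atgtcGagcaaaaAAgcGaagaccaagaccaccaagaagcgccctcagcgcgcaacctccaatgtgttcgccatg
Myl9: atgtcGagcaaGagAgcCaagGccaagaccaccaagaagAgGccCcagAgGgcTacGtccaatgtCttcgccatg
In this stretch *Myl12b* differed from *Myl12a* at 4 bases, all near its start, and *Myl9* differed at 13 bases spread along it. Over the whole coding sequence, 10.4% of the 75-base windows of *Myl12b* also occurred in *Myl12a*, against 0 windows of *Myl9*. Over the whole transcript, 26.9% of the windows of *Myl12a* occurred in transcripts annotated as *Myl12b*, and 3.53% of those of *Myl12b* in other genes. Exons of *Myl12a* also overlap those of an annotated gene of the same strand that bears the name *Myl12b*. Values of *Myl12a* and *Myl12b* are thus uncertain against each other, and their sum is given beside them, while *Myl9* could be told apart along its coding sequence.

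Striated isoforms gave little of the class II signal on both days. Of the 48 members, 19 had a mean of at least 1 FPKM over the 6 samples and 11 had a mean of at least 10 FPKM, while 26 stayed below 1 FPKM in every sample and 21 were listed at 0 in at least 1 sample. Among the 19 were 2 heavy chains, *Myh9* and *Myh10*, both nonmuscle. They also held 5 light chains, of which *Myl12a*, *Myl9*, *Myl12b* and *Myl6* are nonmuscle and smooth muscle chains and *Myl4* is a striated one, and 12 unconventional myosins. The 9 striated heavy chains and 5 striated light chains together gave between 0.816% and 1.89% of the FPKM of all Myh and Myl members in a sample. The order of levels was *Myl12a* and *Myl9* first, *Myl12b* and *Myl6* next, and then *Myo1c*, *Myh9*, *Myo1e* and *Myo1d*. Levels within each of these 3 sets overlapped over the 6 samples.

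**Figure D1:**
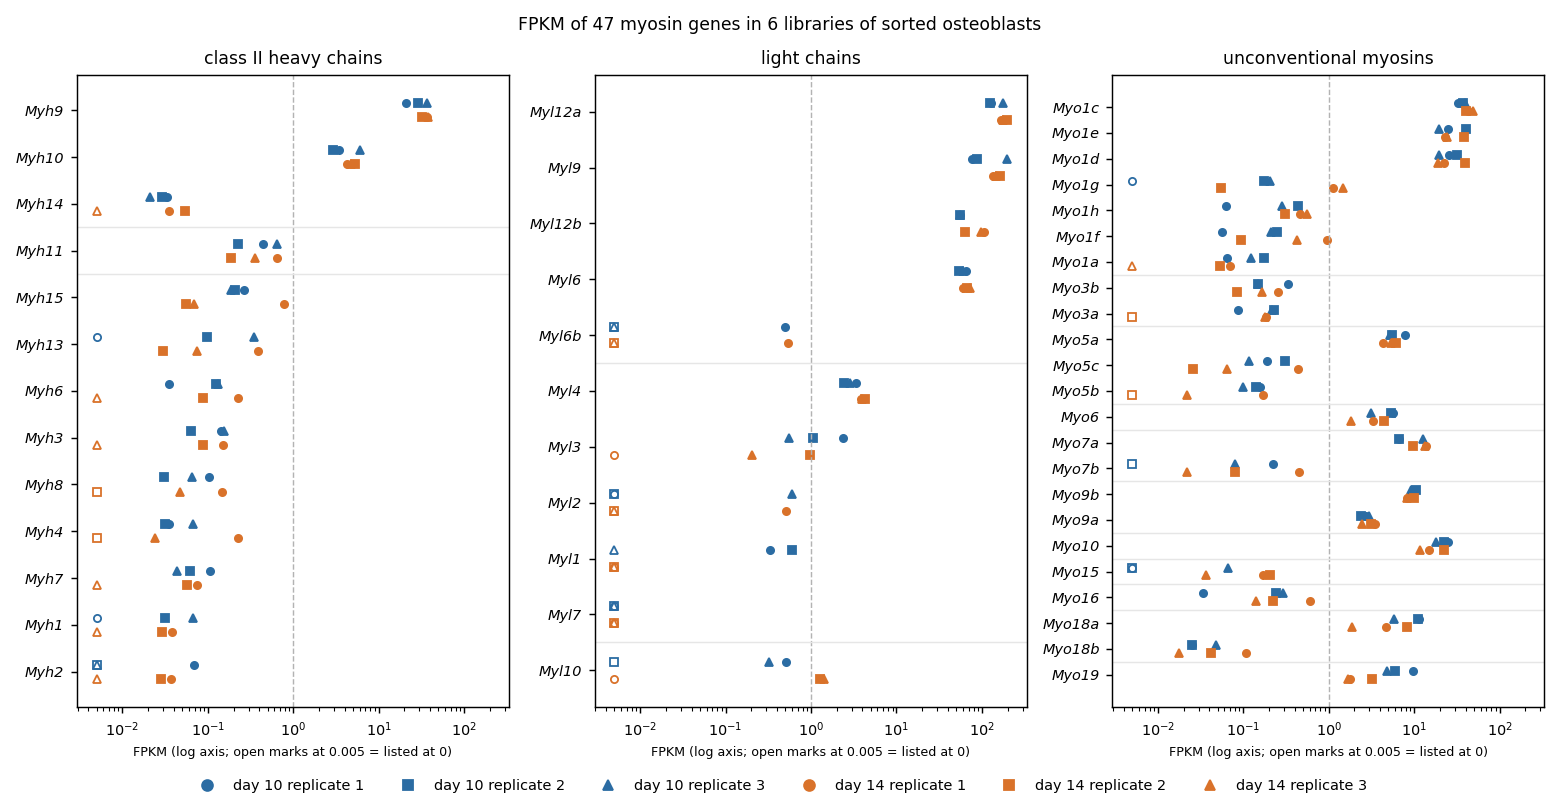
FPKM of 47 of the 48 myosin genes (log axis) in each of the 6 samples, in panels for heavy chains, light chains and unconventional myosins; colour gives the day, open marks at the left edge stand for values listed at 0, and the dashed line is at 1 FPKM. Every striated heavy chain stays left of the line in every sample.

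*Myh9* encodes the heavy chain of nonmuscle myosin IIA, the main contractile motor of most migrating cells. It stood at 21.1, 28.5 and 36.4 FPKM in day 10 replicates 1 to 3 and at 37.0, 32.2 and 37.4 FPKM in day 14 replicates 1 to 3. Only day 10 replicate 3 reached into the range of day 14. The difference was 0.34 on the log2 scale of FPKM + 0.1 (SE 0.21, limma adjusted p = 0.645), within the spread between samples. *Myh9* made up between 82.0% and 88.2% of all class II heavy chain FPKM.

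*Myh10* encodes the heavy chain of nonmuscle myosin IIB, a slower isoform that holds tension longer. Its values were 3.42, 2.90 and 5.98 FPKM on day 10 and 4.30, 5.29 and 4.69 FPKM on day 14. The day 14 samples all lay inside the day 10 range, and the difference was 0.27 on the log2 scale (95% interval −0.41 to 0.95, limma adjusted p = 0.829). Its share of class II heavy chain FPKM was 11.9% ± 2.56 on day 10 and 11.5% ± 2.11 on day 14 (SD, n = 3 each). *Myh14*, the heavy chain of nonmuscle myosin IIC, was listed at 0.033, 0.029 and 0.021 FPKM on day 10 against 0.035, 0.055 and 0 FPKM on day 14. These values stood for at most 2 reads in a sample, and *Myh14* was too low to be tested.

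*Myl12a* and *Myl12b* encode regulatory light chains of nonmuscle myosin II. *Myl12a* was at 129, 124 and 178 FPKM (day 10) against 166, 196 and 174 FPKM (day 14), and day 10 replicate 3 lay among the day 14 samples. Its difference of 0.33 on the log2 scale (SE 0.18) had an adjusted p of 0.602 by limma. *Myl12b* was at 55.8, 54.9 and 55.8 FPKM on day 10 against 105, 63.6 and 98.7 FPKM on day 14.

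*Myl12b* was higher in all 3 samples of day 14, and its day 10 samples lay close together (55.5 ± 0.522 FPKM, SD, n = 3) while its day 14 samples did not (89.2 ± 22.4 FPKM, SD, n = 3). The difference was 0.65 on the log2 scale (SE 0.20, 1.57-fold). It had an unadjusted limma p of 0.0119 and an adjusted p of 0.362, and so did not pass the test. The sum of *Myl12a* and *Myl12b*, which depends less on how shared reads were divided between them, was 184.8, 178.9 and 233.4 FPKM on day 10 and 271.6, 259.2 and 273.2 FPKM on day 14. The sum did not overlap between the days.

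*Myl9* encodes the regulatory light chain typical of smooth muscle and of contractile fibroblasts. It was at 77.2, 88.6 and 197 FPKM (day 10) against 134, 163 and 146 FPKM (day 14). Day 10 replicate 3 was the highest of all 6 samples, and day 10 replicates 1 and 2 were the lowest. The difference of 0.42 on the log2 scale (95% interval −0.33 to 1.16) had an adjusted p of 0.747 by limma. Without day 10 replicate 3 it was 0.83, with an unadjusted p of 0.00215 and an adjusted p of 0.252 by limma. Leaving out the highest day 10 sample must widen the difference, so this run is no test of it. With each other sample left out in turn, the difference ran from 0.16 to 0.48, with unadjusted limma p from 0.272 to 0.646. Of the FPKM of the 3 regulatory light chains, *Myl9* took 29.5%, 33.1% and 45.8% on day 10 and 33.1%, 38.6% and 34.8% on day 14.

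The same day 10 replicate 3 was high for smooth muscle actin *Acta2*, at 594 FPKM against 243 and 236 FPKM in day 10 replicates 1 and 2, while the day 14 samples were at 356, 380 and 465 FPKM. *Tagln*, an actin-binding protein of smooth muscle and contractile fibroblasts, was at 79.4, 80.5 and 167 FPKM (day 10) against 144, 145 and 190 FPKM (day 14). The 14 genes of the smooth muscle and pericyte list summed to 513, 507 and 1051 FPKM on day 10 and to 758, 805 and 911 FPKM on day 14, and none was listed at 0 in all samples. *Acta2* was the largest part of each sum. Within day 10 the list was mixed. *Cspg4* was lowest in replicate 3 (32.7, 32.5 and 13.7 FPKM), and *Synpo2*, *Mcam* and *Notch3* were not highest there, while the remaining genes of the list were. *Myh11*, the smooth muscle heavy chain and a defining marker of that lineage, was at 0.447, 0.228 and 0.643 FPKM on day 10 against 0.650, 0.185 and 0.354 FPKM on day 14. Its values overlapped between the days and rested on 6.8 to 31.1 estimated reads. The part of other cells in the *Myl9* values was not tested.

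*Myl6* encodes the essential light chain shared by nonmuscle and smooth muscle myosin. It was at 64.3, 53.3 and 60.7 FPKM on day 10 against 60.3, 67.7 and 72.5 FPKM on day 14, which overlapped (log2 difference 0.17, SE 0.15, limma adjusted p = 0.782). Of its 75-base windows, 38.6% also occurred in other annotated genes, pseudogenes among them, so its level depends on how the authors' counting treated such reads. *Myl6b*, a related essential light chain, was listed at 0.499 and 0.535 FPKM in replicate 1 of each day and at 0 in the other 4 samples.

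**Figure D2:**
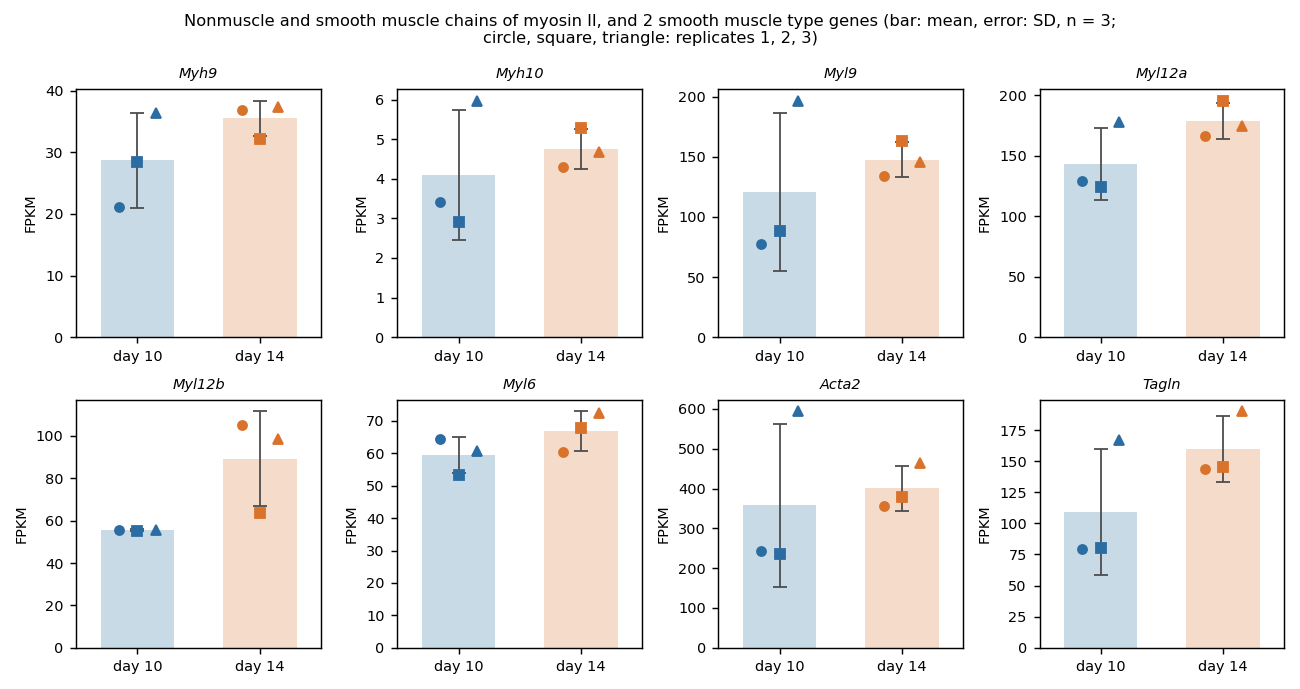
FPKM of 6 nonmuscle and smooth muscle chains of myosin II and of *Acta2* and *Tagln* on day 10 and day 14; bars are means, error bars SD (n = 3 per day), and each point is a sample, with its replicate number given by the marker. *Myl12b* is the only one of the 8 whose days do not overlap (54.9 to 55.8 FPKM against 63.6 to 105 FPKM), and day 10 replicate 3 is the highest sample for *Myh10*, *Myl9* and *Acta2*.

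Striated muscle isoforms were low. No striated heavy chain reached 1 FPKM in any sample, the highest value being 0.784 FPKM for *Myh15* in day 14 replicate 1, and 8 of the 9 were listed at 0 in at least 1 sample. The 9 heavy chains together gave 0.755, 0.646 and 1.06 FPKM on day 10 and 2.07, 0.375 and 0.217 FPKM on day 14. Day 14 replicate 1 was the highest and the other samples of that day were the lowest, so the days overlapped. Sarcomeric heavy chains also share sequence with each other, up to 22.0% of the 75-base windows for *Myh1*, so single values among them are uncertain.

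Most markers of skeletal muscle were low too. Of the 18 genes of that list, 12 were below 1 FPKM in every sample, and the list summed to between 4.004 and 11.99 FPKM. Creatine kinase *Ckm* was at 0.169 FPKM in day 10 replicate 1 and listed at 0 in the other 5 samples. Skeletal actin *Acta1* was at 8.33 FPKM in day 10 replicate 1 and between 0.275 and 0.577 FPKM elsewhere. *Mb* was at 0.268, 0.239 and 0 FPKM on day 10 against 0.972, 1.11 and 0.558 FPKM on day 14 (limma unadjusted p = 0.0172, adjusted p = 0.391). It was the only 1 of the 15 genes tested with an unadjusted p under 0.05 (6.67%, against 10.0% of all genes tested). Of the separate list of 5 muscle progenitor genes, 4 were below 1 FPKM in every sample, with *Myog*, a transcription factor of muscle differentiation, listed at 0 in all 6. The fifth, the cadherin gene *Cdh15*, was at 6.89, 11.2 and 1.90 FPKM on day 10 against 0.913, 4.99 and 0.268 FPKM on day 14.

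*Myl4*, the atrial and embryonic essential light chain, was the striated member with the highest level. It was at 3.33, 2.42 and 2.85 FPKM on day 10 against 3.89, 4.24 and 3.98 FPKM on day 14. All day 14 samples were above all day 10 samples, by 0.49 on the log2 scale (SE 0.24, limma unadjusted p = 0.0695, adjusted p = 0.541). Each value rested on only 9.8 to 20.7 estimated reads. *Myl3*, the ventricular and slow-muscle essential light chain, was at 2.37, 1.05 and 0.558 FPKM on day 10 against 0, 0.977 and 0.205 FPKM on day 14, on at most 8.5 estimated reads.

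The remaining light chains were lower still. *Myl1*, the fast skeletal essential chain, was at 0.335 and 0.597 FPKM in day 10 replicates 1 and 2 and listed at 0 in the other 4 samples. *Myl2*, the slow and ventricular regulatory chain, was at 0.604 FPKM in day 10 replicate 3, at 0.514 FPKM in day 14 replicate 1 and at 0 elsewhere. The atrial regulatory chain *Myl7* was listed at 0 in all 6 samples. *Myl10*, a regulatory chain of uncertain class, ranged from 0 to 1.42 FPKM on at most 4.8 estimated reads.

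Class I myosins link membranes to actin and were the most abundant unconventional class. *Myo1c*, *Myo1d* and *Myo1e* each had a mean above 10 FPKM. *Myo1c*, known for moving glucose transporter vesicles and for nuclear roles, was at 33.0, 37.5 and 38.9 FPKM on day 10 against 42.9, 40.2 and 48.7 FPKM on day 14. It was higher in all 3 day 14 samples, by 0.27 on the log2 scale (SE 0.15, limma adjusted p = 0.602).

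*Myo1d*, which sets left-right asymmetry in other animals, and *Myo1e*, a motor of endocytosis and adhesions, showed almost the same mean on both days. *Myo1d* was at 25.5, 31.4 and 19.7 FPKM on day 10 against 22.1, 39.2 and 19.2 FPKM on day 14. *Myo1e* was at 25.2, 40.6 and 19.6 FPKM on day 10 against 23.1, 37.8 and 23.9 FPKM on day 14. In both genes replicate 2 of each day was the highest sample of its day. The 95% interval of the difference ran from −0.63 to 0.68 on the log2 scale for *Myo1d* and from −0.66 to 0.69 for *Myo1e*. Changes within these intervals were not excluded.

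*Myo1f* and *Myo1g* are class I myosins of blood cells and were low. *Myo1g* was at 0, 0.176 and 0.207 FPKM on day 10 against 1.13, 0.054 and 1.46 FPKM on day 14, and *Myo1f* was at 0.056, 0.251 and 0.212 FPKM on day 10 against 0.965, 0.093 and 0.429 FPKM on day 14. Day 14 replicates 1 and 3 were the highest samples for both genes. The 11 genes of the haematopoietic and myeloid list summed to 33.1, 147 and 121 FPKM on day 10 and to 260, 14.0 and 606 FPKM on day 14, again highest in day 14 replicates 1 and 3, and none of them was listed at 0 in all samples. *Lyz2* was the largest part of each sum. *Cd68*, *Csf1r* and *Tyrobp* were higher in day 10 replicate 2 than in day 14 replicate 1. The other genes of the list were highest in day 14 replicates 1 and 3. *Ptprc*, which encodes CD45, was between 0.134 and 2.99 FPKM although cells positive for CD45 had been left out of the sort. The part of blood cells in the *Myo1f* and *Myo1g* values was not tested. *Myo1a* and *Myo1h*, also of class I, stayed below 1 FPKM, and *Myo1h* shares 20.5% of its windows with the overlapping gene *Kctd10*.

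Among the unconventional myosins with lower means on day 14, *Myo19* differed most. *Myo19* encodes a motor anchored in the outer mitochondrial membrane. It was at 9.78, 5.93 and 4.79 FPKM on day 10 against 1.795, 3.19 and 1.70 FPKM on day 14. The highest day 14 sample was below the lowest day 10 sample, and the difference was −1.57 on the log2 scale (SE 0.35, 2.96-fold lower). The unadjusted limma p was 0.00191 and the adjusted p was 0.297, the smallest among the members and still short of the threshold. The two-sided exact permutation test gave p = 0.1, the smallest that 3 samples against 3 allow.

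Exons of *Myo19* (chromosome 11, 84880148 to 84911226 on the plus strand of mm10) overlap exons of *Pigw* and *Znhit3* on the opposite strand. *Pigw* was between 0.493 and 0.887 FPKM and *Znhit3* between 8.37 and 13.2 FPKM, with a difference of 0.34 on the log2 scale for *Znhit3*. The sources used here do not give a strand setting for the counting, so reads from the shared exons cannot be assigned to either gene with certainty.

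*Myo18a*, a myosin without ATPase activity that joins nonmuscle myosin II filaments and the Golgi, was at 11.2, 11.0 and 5.84 FPKM on day 10 against 4.65, 8.19 and 1.85 FPKM on day 14. Day 14 replicate 2 lay within the day 10 range and the other samples of that day lay below it (log2 difference −1.09, SE 0.50, limma adjusted p = 0.521). *Myo10*, the motor of filopodia, was at 24.6, 22.4 and 18.0 FPKM on day 10 against 14.8, 22.6 and 11.8 FPKM on day 14. It showed the same arrangement of samples (log2 difference −0.44, SE 0.25, limma adjusted p = 0.613).

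The samples in which *Myo18a* and *Myo19* were high were also high in the summed markers of OBs and of chondrocytes. On day 10 both genes and both summed lists were all highest in replicate 1 and lowest in replicate 3. On day 14 they were all highest in replicate 2 and lowest in replicate 3. *Myo6* and *Myo10* had the same highest and lowest samples on both days, so the order was not particular to *Myo18a* and *Myo19*. Single genes of the lists did not all follow the sums. On day 10 *Runx2*, *Col1a1* and *Bglap2* were highest in replicate 2 and *Matn3* in replicate 3, and the other genes of both lists in replicate 1. On day 14 every gene of both lists was highest in replicate 2. The chondrocyte list, of 9 genes, summed to 815, 714 and 397 FPKM on day 10 and to 113, 1014 and 72.5 FPKM on day 14. *Sp7*, a transcription factor required for OB formation, was at 73.7, 51.1 and 40.1 FPKM on day 10 against 9.79, 27.9 and 4.09 FPKM on day 14. It was the only gene of the OB list whose days did not overlap. The part of the makeup of the samples in these differences was not tested.

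**Figure D3:**
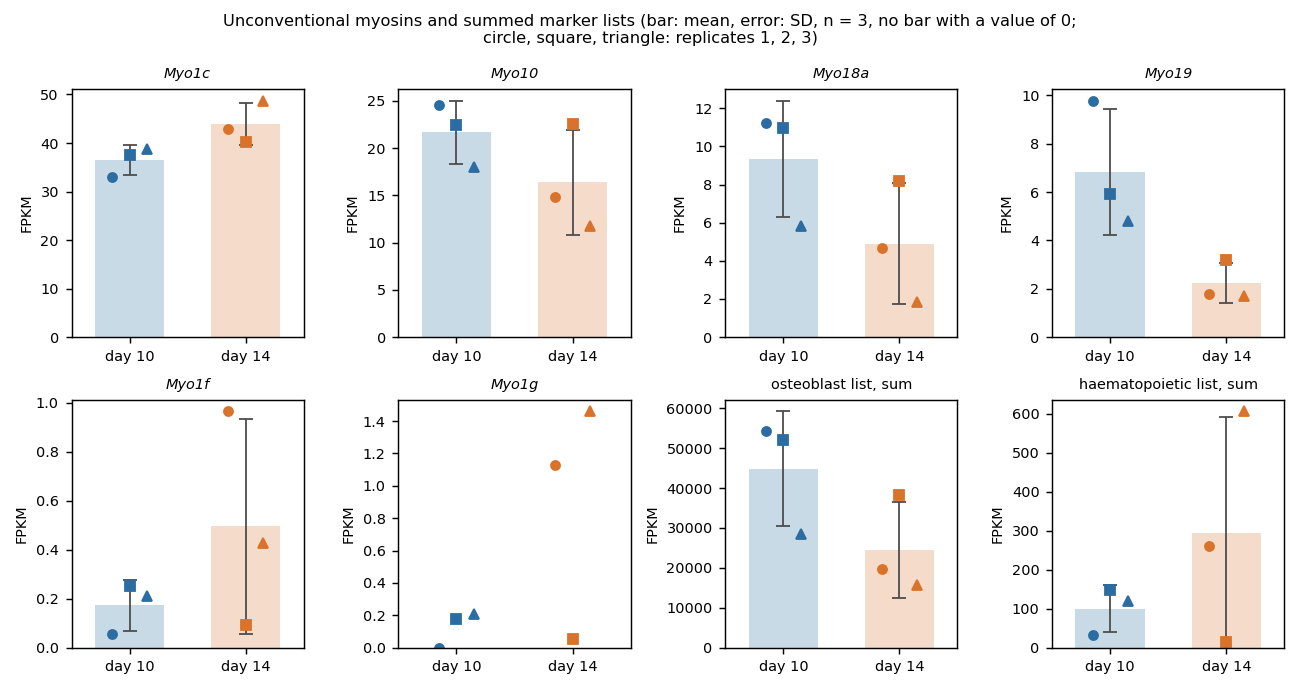
FPKM of 6 unconventional myosins and summed FPKM of the OB and the haematopoietic and myeloid marker lists on day 10 and day 14; bars are means and error bars SD (n = 3 per day, no bar where a sample is listed at 0), and points are samples. *Myo19* does not overlap between the days (4.79 to 9.78 FPKM against 1.70 to 3.19 FPKM), and *Myo1f*, *Myo1g* and the haematopoietic sum are highest in day 14 replicates 1 and 3.

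The other expressed unconventional myosins did not separate the days. *Myo7a*, a cargo motor known from sensory hair cells, was at 6.69, 6.60 and 12.6 FPKM on day 10 against 13.9, 9.75 and 13.5 FPKM on day 14. As for *Myl9*, day 10 replicate 3 stood with the day 14 samples (log2 difference 0.56, SE 0.28, limma adjusted p = 0.565). *Myo6*, the motor that moves towards the minus end of actin, was at 5.67, 5.29 and 3.12 FPKM on day 10 against 3.28, 4.46 and 1.83 FPKM on day 14.

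*Myo5a*, a carrier of vesicles and melanosomes, was at 7.73, 5.46 and 5.24 FPKM on day 10 against 4.29, 6.12 and 5.35 FPKM on day 14. *Myo9a* and *Myo9b* carry a domain that switches off a small GTPase, besides their motor. *Myo9a* stayed between 2.38 and 3.44 FPKM, and *Myo9b* between 8.22 and 10.4 FPKM, in all 6 samples. For *Myo9b* the difference was −0.17 on the log2 scale with a 95% interval from −0.56 to 0.22. The 8 further unconventional members outside class I, in classes III, V, VII, XV, XVI and XVIII, did not reach 1 FPKM in any sample.

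Over the family, no member passed the test of day 14 against day 10. Of the 48 members, 36 had a mean above 0.1 FPKM and were tested, and 12 were not. Of the 36, 0 had an adjusted p under 0.05 by limma, where 0.0154% of all 19526 genes tested did. An unadjusted p under 0.05 was found for 2 of 36 (5.56%), against 10.0% of all genes tested. They were *Myl12b*, higher on day 14 as 5.60% of all genes were at that threshold, and *Myo19*, lower as 4.40% were. A difference over 2-fold was found for 6 of 36 (16.7%) against 13.6% of all genes. These were *Myo18a* and *Myo19*, with means over the 6 samples of 7.13 and 4.53 FPKM, and *Myl1*, *Myl3*, *Myl10* and *Myo1g*, each listed at 0 in at least 1 sample. The days did not overlap for 4 of 36 members (11.1%) against 14.3% of all genes. Of these, *Myl12b*, *Myl4* and *Myo1c* were higher on day 14 (7.59% of all genes) and *Myo19* was lower (6.67% of all genes). The share of members called was near or below that of all genes by each of these measures.

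The signs of the differences were counted by role, with no test between roles. Of the 8 nonmuscle and smooth muscle members of class II tested, 7 had positive differences, as did 9085 of all 19526 genes tested, and *Myh11* had a negative one (−0.15 on the log2 scale). The 7 are the tested nonmuscle heavy chains and the nonmuscle and smooth muscle light chains. Their median was 0.33 on the log2 scale, and it leaves out *Myh11*, the negative one. The difference of *Myl6b*, listed at 0 in 4 samples, became negative without day 10 replicate 2 or 3. All 36 members had a median of 0.03, with 20 positive and 16 negative, and all genes tested had a median of −0.04. Of the 20 unconventional members tested, 10 were positive and 10 negative, with a median of −0.08. Of the 8 class II differences, that of *Myl12b* alone had an unadjusted p under 0.05.

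**Figure D4:**
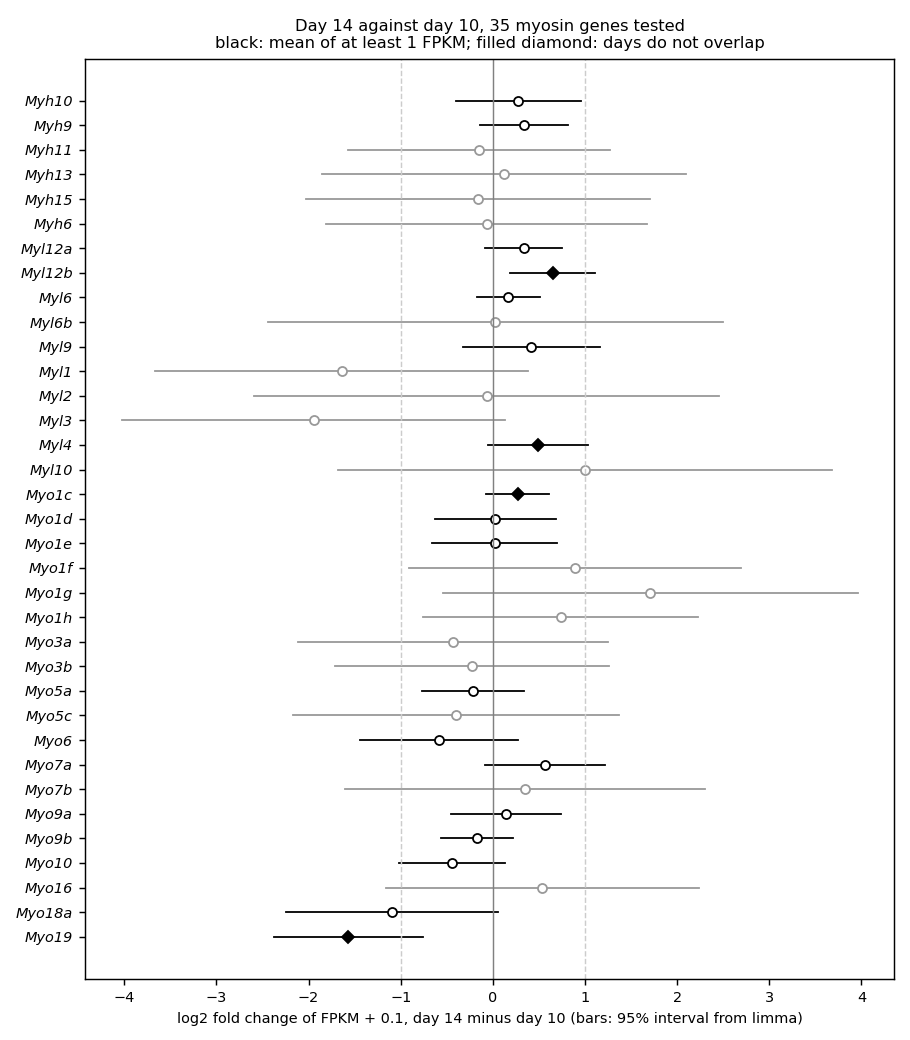
Log2 difference in FPKM + 0.1 (day 14 minus day 10) with its 95% interval from limma for 35 of the 36 myosin genes tested; black marks stand for genes averaging 1 FPKM or more, filled diamonds for genes whose days do not overlap. The intervals of *Myl12b* (0.19 to 1.11) and *Myo19* (−2.37 to −0.76) lie clear of 0, and neither gene has an adjusted p under 0.05.

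The outcome for several members turned on 2 samples. Without day 14 replicate 2, 8 of 38 members (21.1%) had an unadjusted p under 0.05 against 13.0% of all genes. *Myl12b*, *Myo1g* and *Myo7a* were higher on day 14 (3 of 38, against 7.01% of all genes), and 5 of 38 were lower (against 5.99%), with *Myl3*, *Myo10*, *Myo18a* and *Myo19* among them. The smallest adjusted p among them by limma was 0.064, that of *Myl12b*, and 0.386% of all genes had an adjusted p under 0.05. That sample lay inside the day 10 range for 11 of the 19 members that averaged 1 FPKM or more, against 7 for day 14 replicate 1 and 6 for day 14 replicate 3. Without day 10 replicate 3, 9 of 35 members (25.7%) had an unadjusted p under 0.05 against 10.1% of all genes. *Myh9*, *Myl12a*, *Myl12b*, *Myl9* and *Myo7a* were higher on day 14 (5 of 35, against 5.94% of all genes), and 4 of 35 were lower (against 4.17%), with *Myl1*, *Myo18a* and *Myo19* among them. Leaving out either of these 2 samples gave the most members called. Without day 10 replicate 1, day 10 replicate 2 or day 14 replicate 3, only 2 members had an unadjusted p under 0.05 (5.56%, 5.71% and 5.26%). Over all genes, 937, 1458 and 1379 had one, against 1954 (10.0% of those tested) with all 6 samples. Without day 14 replicate 1, it was 3 members (9.09%) and 2559 genes, a gene count close to the 2557 (13.0%) without day 14 replicate 2. *Myl12b* and *Myo19* had an unadjusted p under 0.05 with each of the 6 samples left out in turn.

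The regulators and partners of myosin II were taken from a list of 40 genes outside the family, of which 38 were tested. None had an adjusted p under 0.05 by limma, and 4 of 38 (10.5%) had an unadjusted p under 0.05, a share close to the 10.0% of all genes. All 4 were higher on day 14, as 5.60% of all genes were at that threshold, and none was lower, as 4.40% were. No test was made over the list. *Mylk*, which encodes the kinase that activates the regulatory light chains, was at 1.90, 3.25 and 3.59 FPKM on day 10 against 5.94, 5.50 and 3.85 FPKM on day 14, a log2 difference of 0.81 (SE 0.31, limma adjusted p = 0.441). *Rock2*, another kinase that phosphorylates the same chains, was at 10.1 ± 2.71 FPKM on day 10 and 15.6 ± 3.39 FPKM on day 14 (SD, n = 3 each).

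The other 2 were a phosphatase subunit and an actin-binding protein. *Ppp1r12c*, a targeting subunit of the myosin phosphatase, which opposes these kinases, was at 14.7 ± 2.66 FPKM on day 10 and 21.0 ± 2.05 FPKM on day 14. Caldesmon (*Cald1*), which restrains myosin on actin, was at 64.0 ± 15.5 FPKM on day 10 and 99.7 ± 8.36 FPKM on day 14 (SD, n = 3 each). Of the 38 genes, 22 had positive differences, with a median of 0.21 on the log2 scale. Of all 19526 genes tested, 9085 had positive differences, with a median of −0.043.

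Promoters were searched for the CArG box, the ten-letter element bound by serum response factor, which is known to drive many actin and myosin genes. RefSeq promoters (GRCm38.p6, 250 bases before to 50 after each start) were at hand for 42 members, and 7 of the 53 member promoters (13.2%) held the element against 1.63% of all 32851 promoters. The 7 genes were *Myl9*, *Myo1e*, *Myl3*, *Myl6*, *Myl7*, *Myh4* and *Myh13*, which ranged from *Myl9*, among the highest members, to *Myl7*, listed at 0 in every sample. Stretches upstream of the start are shown for *Myl9* and *Myo1e*, the abundant members with the element whose reads are not shared with other genes, with the element in capitals. They lie at chr2:156775248-156775367 and chr9:70207230-70207349, both on the plus strand, and the element begins 161 bases and 32 bases before the start.
Myl9: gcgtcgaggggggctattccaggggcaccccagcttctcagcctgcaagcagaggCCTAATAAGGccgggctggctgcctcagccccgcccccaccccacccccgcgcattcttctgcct
Myo1e: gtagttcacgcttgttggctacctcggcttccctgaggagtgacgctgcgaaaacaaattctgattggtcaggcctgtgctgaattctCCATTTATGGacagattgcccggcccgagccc
The days overlapped for both genes. A match of letters is a description of the sequence and not evidence of binding.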

How the data were processed

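RNA-seq of sorted OBs (3 samples of day 10, 3 of day 14) was analysed. According to the methods and the submitters' processing notes, the authors aligned single-end reads of 75 bases to the mm10 genome with TopHat2 2.0.13, Bowtie2 2.2.3 and SAMtools 0.1.19, and deposited FPKM per gene from Cufflinks 2.2.1. The annotation, the strand setting and the handling of shared reads are not given in the sources used here. Whether replicates came from separate mice is not stated beyond the label biological, so p-values measure the spread between these samples.

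In 1 sample, 25 symbols had become dates and were restored by position. Differences were tested with limma 3.58.1 (R 4.3.3; lmFit, eBayes with trend) on log2(FPKM + 0.1), over 19526 genes with a mean FPKM above 0.1, with Benjamini-Hochberg adjustment over all of them. Such differences understate changes of low genes. Separated days means that every sample of one day exceeded every sample of the other. Intervals cover 95%.

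Mapped reads were estimated from steps between values up to 0.3 FPKM of genes with 1 transcript of 1500 to 8000 bases, of which 74.2% to 79.3% came out within 0.1 of a whole read. All 48 members were matched to GENCODE vM21. The share of 75-base windows of a transcript found in other genes was counted, and positions count from 1.

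On simulated data for this comparison, with 200 of 19526 genes changed, 79.5% were recovered at a log2 change of 2 and 85.0% at a change of 3, with 8 false calls each. The changed genes were drawn from those with a positive mean of log2(FPKM + 0.1), and the spread was smoothed over level. Every tested member differed by less than 2 on the log2 scale, and recovery of such smaller changes was not simulated. Alternatives were other pseudocounts, filters, scaling and variance models, a replicate block, and each sample left out. The members, lists and rules for naming genes were chosen with earlier results of these data known. Members with a mean of at least 1 FPKM, an unadjusted p under 0.05 or separated days are given in full, the rest by range, with low members of interest added. Values of 1 member are not reported here, although it is included in the counts.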

Additional observations from a re-analysis of the deposited data

How the results depend on the processing

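Myosin genes with an adjusted p under 0.05 stayed at 0 in every alternative run with limma, while 2 had an unadjusted p under 0.05. That count of 2 became 1 without the variance trend, where the limma p of *Myl12b* was 0.0512, and 5 with the replicate number as a block. Same-numbered samples had correlations of deviations of 0.058, −0.0058 and 0.0887, so the numbers were not taken as pairs. Leaving out single samples gave 2 to 9, with 9 without day 10 replicate 3 and 8 without day 14 replicate 2. The 6 members over 2-fold became 1 with a pseudocount of 1 and 2 with a mean FPKM above 1. The 4 members with separated days ran from 5 to 15 with samples left out. Days separate more easily when a day has fewer samples, and the count over all genes, 2784 with all samples, rose in each of these runs too. The 15 were found without day 10 replicate 3, where 4993 of all genes had separated days. Pathway genes with an unadjusted p under 0.05 went from 4 to 2 without the trend and from 1 to 6 with samples left out, 1 without day 10 replicate 1.

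Over all genes, those with an adjusted p under 0.05 ran from 3 to 76 with samples left out (76 without day 14 replicate 2), those with an unadjusted p under 0.05 from 937 to 2559 (937 without day 10 replicate 1), those over 2-fold from 2617 to 4022 and those with separated days from 3583 to 6048. Genes over 2-fold numbered 514 with a pseudocount of 1, 5107 with 0.01 and 845 with a mean FPKM above 1. The difference of *Myo1e* turned from 0.02 to −0.002 with median ratio scaling and ran from −0.215 to 0.307 with samples left out, and that of *Myo1d* ran from −0.284 to 0.229. Of 133 values of single members under other settings, 126 kept their direction and side of the threshold, and of 114 with a sample left out, 99 did. The cause of these shifts was not tested. Many members rest on few reads in a sample, among them *Myl4* above 1 FPKM, and the groups of 3 samples were too small for a check of single outlying samples.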
